A study of Mus musculus with 6 samples.

Results

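The Kruppel-like factor (KLF) genes studied here are Klf2, Klf3, Klf4, Klf5, Klf6, Klf7, Klf9, Klf10, Klf13 and Klf16, taken from the deposited count table by gene symbol. They are 10 of the 28063 genes in the table and 10 of the 15 KLF genes in it. They were chosen with earlier results of these libraries known, in which Klf4 stood higher in both Malt1 populations than in Vector. Levels and fold changes against Vector are therefore given as a description, and no p-value of a member is printed there.

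RNA was sequenced from E0771, a mouse mammary carcinoma line, in 6 libraries, 2 for each of 3 populations. The populations carried Malt1 in a form named PD, an abbreviation left unexplained in the labels (Malt1_PD), wild-type Malt1 (Malt1_WT) or a control vector (Vector). Every population, Vector included, had spent 12 hours with activated CD8 T cells, 3 to each target cell. After washing and trypsin the cells were replated, and lysis followed at 6 hours. The labels name no promoter, clone or separate culture for any population, so the effect of a Malt1 form and any other feature of its population cannot be told apart, and the spread between the 2 libraries of a group may be technical.

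KLF proteins bind GC-rich and CACCC sequences through a conserved set of zinc fingers at their C terminus, and differ in the co-regulators that they recruit. Klf4 is a regulator of growth arrest and epithelial differentiation, and is one of the factors used to reprogram somatic cells to pluripotency. Klf2 is known for quiescence in T cells and for the response of endothelium to flow, Klf5 for growth of epithelial progenitors, and Klf6 as a factor induced by injury. Klf3 recruits the repressor CTBP, while Klf9, Klf10, Klf13 and Klf16 recruit the SIN3A repressor complex.

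The promoters of Klf4, the member furthest above Vector, and of Klf2, the member furthest below it in Malt1_PD, are shown to compare the sequence at their starts. Both are RefSeq windows on build GRCm38.p6, from 250 bases before to 50 bases after the start of the gene. Klf4 lies at chr4:55532426-55532725 on the minus strand and Klf2 at chr8:72318812-72319111 on the plus strand. Capitals mark GC boxes (GGGCGG on either strand), CACCC boxes (CACCC on either strand) and a match to the MEF2 motif.
Klf4: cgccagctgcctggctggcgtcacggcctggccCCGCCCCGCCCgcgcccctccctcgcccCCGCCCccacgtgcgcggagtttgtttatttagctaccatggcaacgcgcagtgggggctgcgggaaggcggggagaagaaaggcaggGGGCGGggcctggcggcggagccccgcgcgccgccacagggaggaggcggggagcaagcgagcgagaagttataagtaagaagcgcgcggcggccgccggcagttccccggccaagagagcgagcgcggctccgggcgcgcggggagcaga
Klf2: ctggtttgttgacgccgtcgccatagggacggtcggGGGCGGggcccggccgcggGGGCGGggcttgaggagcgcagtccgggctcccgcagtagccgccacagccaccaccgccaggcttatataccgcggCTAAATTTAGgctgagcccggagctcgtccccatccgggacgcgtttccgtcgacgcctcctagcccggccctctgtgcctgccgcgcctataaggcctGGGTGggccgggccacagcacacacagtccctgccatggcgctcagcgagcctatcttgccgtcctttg

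The Klf4 window held 4 GC boxes, of which a pair overlap, no CACCC box and an E-box (CACGTG) that begins at -182 from the start. The Klf2 window held 2 GC boxes, 1 CACCC box and 1 match to the MEF2 motif, which begins at -118. Of the 32851 promoter windows of this length, 35.7% held a GC box, 57.5% a CACCC box, 7.15% an E-box and 3.19% a MEF2 match. GC content was 74.3% in the Klf4 window and 69.3% in the Klf2 window, against a median of 52.7% over all windows. Windows were found for 7 of the 10 members, those of Klf2, Klf3, Klf4, Klf6, Klf7, Klf9 and Klf13, of which Klf9 held no GC box and Klf4 and Klf6 no CACCC box. Among all 7 the MEF2 motif matched Klf2 alone, an AP-1 motif (TGANTCA) matched Klf9 alone and E-boxes matched Klf4 and Klf6. The cAMP response element (TGACGTCA), the TATA box (TATAAA), the NF-kB motif and the serum response CArG motif matched none of the 7. These are letter matches on either strand and were not tied to binding or to the counts.

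Libraries held 14045390 to 19962014 counts, and 3 counts equalled 0.150 to 0.214 CPM (counts scaled to library size with TMM factors). Malt1 was counted at 106 and 95.7 CPM in Malt1_PD, 67.2 and 82.1 CPM in Malt1_WT, against 23.8 and 31.3 CPM in Vector, so both Malt1 populations stood above Vector. Of the mammary epithelial and carcinoma markers, Krt8 had 1742 to 2204 counts a library and Vim 58651 to 82518, while the keratin gene Krt18 had at most 12 and the cadherin gene Cdh1 at most 8. The 10 T cell markers with a row, of 14 looked for, summed to 2.26 to 2.28 CPM in Malt1_PD, 1.49 to 2.24 in Malt1_WT and 2.36 to 2.46 in Vector. Lck gave 18 to 35 counts a library and each of the other T cell markers at most 7, among them Cd3d, Cd3g, Cd8a and Trac. The 7 myeloid markers with a row, of 8, summed to 15.6 CPM in both Malt1_PD libraries, 16.7 and 18.5 CPM in Malt1_WT, against 23.0 and 19.9 CPM in Vector, mostly from Cd14 and Cd68. Of the other myeloid markers, Lyz2 had 29 to 56 counts a library, Csf1r at most 9, Itgam at most 7, Fcer1g at most 6 and Adgre1 at most 2. Whether the Cd14 and Cd68 counts came from myeloid cells or from the E0771 cells was not tested. In these bulk samples, fewer cells of a type and less RNA per cell cannot be told apart.

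All 10 members were counted in every library and all passed the low-count filter, with between 253 counts (Klf5 in Malt1_WT replicate 1) and 4492 counts (Klf6 in Malt1_WT replicate 2). The longest exact run of bases shared by transcripts of a pair of members was 36, between Klf3 and Klf13, shorter than the reads of 150 bases. Exons of Klf7 overlap those of Gm26649 on the opposite strand over 3196 bases, and exons of Klf3 overlap those of Gm20033 over 404 bases. Whether strand was used in counting is not stated in the sources at hand, so Klf7 and Klf3 are less certain than the other members. Gm20033 itself had 12 counts over the 6 libraries.

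Klf4 (ENSMUSG00000003032.8, chromosome 4, 55527143 to 55532466 in GRCm38, minus strand) stood at 35.4 and 34.8 CPM in Malt1_PD. Its Malt1_WT libraries had 37.3 and 38.8 CPM, against 25.7 and 27.2 CPM for Vector. All 4 Malt1 libraries lay above both Vector libraries, and both Malt1_WT libraries lay above both Malt1_PD libraries. These values rest on 560 and 586 counts in Malt1_PD, 524 and 778 in Malt1_WT, and 457 and 485 in Vector. Exact Poisson intervals at 95%, which cover counting error only, reached down to 32.1 CPM among the Malt1 libraries (Malt1_PD replicate 2) and up to 29.7 CPM among the Vector libraries (replicate 2).

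Group means of Klf4 were 35.1 ± 0.426 CPM in Malt1_PD, 38.0 ± 1.06 CPM in Malt1_WT and 26.4 ± 1.02 CPM in Vector (SD, n = 2 each). The log2 fold change was 0.41 ± 0.09 (SE) in Malt1_PD against Vector, 1.33-fold, and 0.53 ± 0.09 in Malt1_WT against Vector, 1.44-fold. Both comparisons use the same Vector libraries. Of the 14675 genes tested, 8.39% had a larger log2 fold change than Klf4 in Malt1_PD against Vector and 4.72% in Malt1_WT against Vector. In both comparisons Klf4 was the member furthest above Vector.

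**Figure D1:**
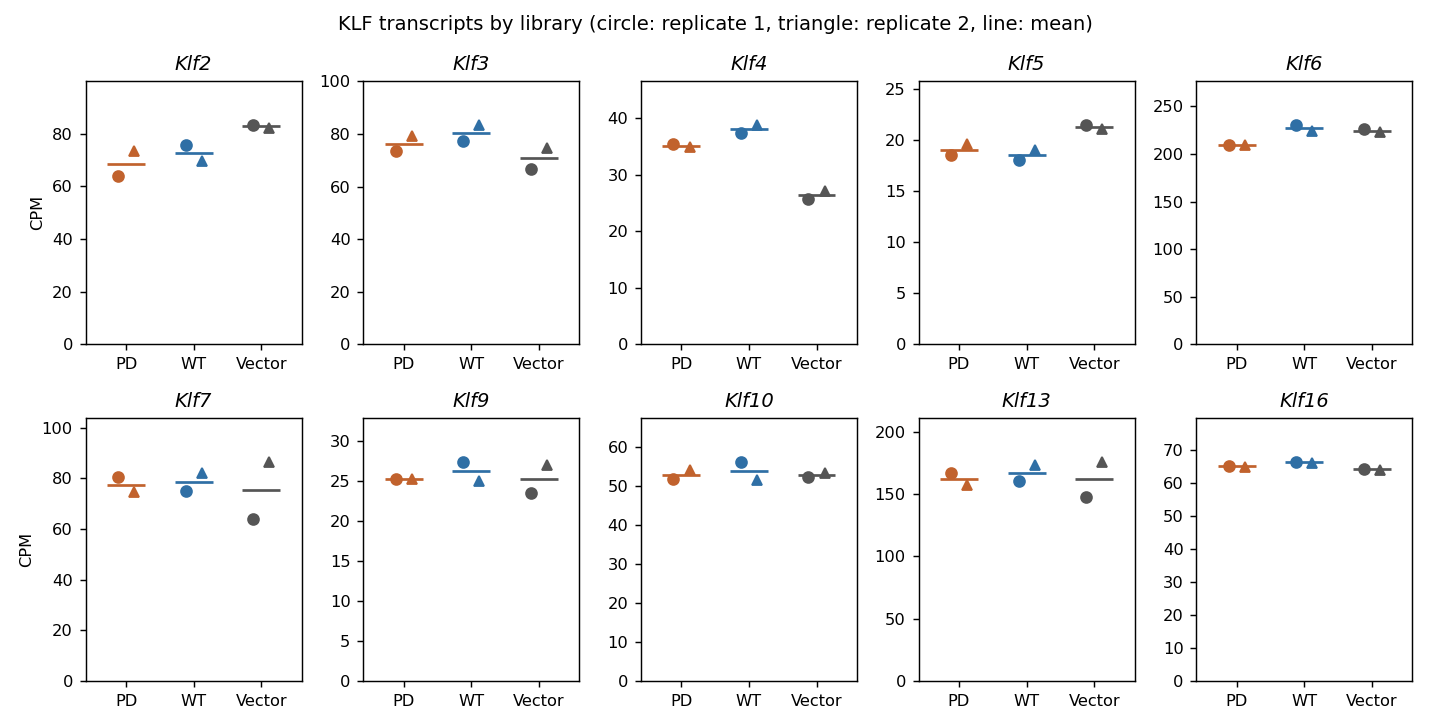
Level of each KLF gene in CPM (vertical axis, from 0) in Malt1_PD, Malt1_WT and Vector libraries. Each point is a library (circle for replicate 1, triangle for replicate 2) and each line the mean of 2. Klf4 lies at 34.8 to 38.8 CPM in the Malt1 libraries, above 25.7 and 27.2 CPM in Vector, while Klf7 and Klf13 differ most between the Vector libraries.

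Klf2 (ENSMUSG00000055148.7, chromosome 8, 72319033 to 72321656, plus strand) had 63.9 and 73.3 CPM in Malt1_PD, 75.8 and 69.7 CPM in Malt1_WT, against 83.3 and 82.1 CPM in Vector. All 4 Malt1 libraries lay below both Vector libraries, and the ranges of the Malt1 forms overlapped. The log2 fold change was -0.27 ± 0.10 (SE) in Malt1_PD against Vector and -0.19 ± 0.10 in Malt1_WT against Vector. Klf2 is also a gene of T cells. The 10 T cell markers with a row summed to 2.36 and 2.46 CPM in Vector and to 1.49 to 2.28 CPM in the Malt1 libraries. The part of any T cells in the Klf2 values was not tested.

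Klf5 (ENSMUSG00000005148.8, chromosome 14, 99298691 to 99315036, plus strand) had 18.5 and 19.6 CPM in Malt1_PD, 18.0 and 19.0 CPM in Malt1_WT, against 21.4 and 21.1 CPM in Vector. Like Klf2, it lay lower in every Malt1 library than in either Vector library. The log2 fold changes against Vector were -0.16 ± 0.11 (SE) in Malt1_PD and -0.20 ± 0.11 in Malt1_WT.

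Klf6 (ENSMUSG00000000078.7, chromosome 13, 5861482 to 5870394, plus strand) had 209.6 and 209.1 CPM in Malt1_PD, 231 and 224 CPM in Malt1_WT, against 226 and 223 CPM in Vector. Both Malt1_PD libraries were lower than the other 4, and Malt1_WT overlapped Vector. The log2 fold change was -0.10 ± 0.07 (SE) in Malt1_PD against Vector and 0.02 ± 0.07 in Malt1_WT against Vector.

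Klf7 (ENSMUSG00000025959.13, chromosome 1, 64029447 to 64122282, minus strand), the closest relative of Klf6, had 80.5 and 74.5 CPM in Malt1_PD, 74.9 and 82.2 CPM in Malt1_WT, against 63.9 and 86.7 CPM in Vector. The Vector pair enclosed all 4 Malt1 libraries, so no group stood apart. Its log2 fold changes against Vector were 0.04 ± 0.14 (SE) in Malt1_PD and 0.06 ± 0.14 in Malt1_WT.

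Klf3 (ENSMUSG00000029178.14, chromosome 5, 64803388 to 64832901, plus strand), the CTBP-recruiting repressor, had 73.4 and 79.2 CPM in Malt1_PD, 77.4 and 83.5 CPM in Malt1_WT, against 66.7 and 74.8 CPM in Vector. Malt1_WT lay above Vector without overlap, and Malt1_PD overlapped Vector. The log2 fold changes against Vector were 0.11 ± 0.10 (SE) in Malt1_PD and 0.19 ± 0.10 in Malt1_WT.

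For each SIN3A-recruiting member the group means lay close together, though the Vector libraries of Klf13 and Klf9 differed more. Klf16 (chromosome 10, 80567124 to 80577321, minus strand) had 65.2 and 65.0 CPM in Malt1_PD, 66.6 and 66.1 CPM in Malt1_WT, against 64.3 and 64.1 CPM in Vector. These ranges did not overlap, but the log2 fold changes against Vector were only 0.02 ± 0.08 (SE) in Malt1_PD and 0.05 ± 0.08 in Malt1_WT. Klf10 (chromosome 15, 38291463 to 38300706, minus strand), a TGF-beta-inducible early gene, had 51.6 and 54.1 CPM in Malt1_PD, 56.2 and 51.6 CPM in Malt1_WT, against 52.2 and 53.3 CPM in Vector. Klf9 (chromosome 19, 23141226 to 23168134, plus strand), a gene induced by glucocorticoids, had 25.2 and 25.3 CPM in Malt1_PD, 27.4 and 24.98 CPM in Malt1_WT, against 23.5 and 27.0 CPM in Vector. The groups overlapped for both genes, and no log2 fold change of either against Vector was more than 0.05 in size. Klf13 (chromosome 7, 63886351 to 63938915, minus strand), whose human counterpart regulates the chemokine gene CCL5 in T cells, had 167 and 158 CPM in Malt1_PD, 161 and 174 CPM in Malt1_WT, against 148 and 176 CPM in Vector. The Vector pair again enclosed the 4 Malt1 libraries.

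With edgeR's quasi-likelihood test and p-values adjusted after Benjamini and Hochberg, 0 of the 10 members passed an adjusted p of 0.05 in Malt1_PD against Vector, where 0.00681% of the genes tested passed, and 0 of 10 in Malt1_WT against Vector, where the share was also 0.00681%. At an unadjusted p under 0.05, 1 member was higher (Klf4, against 3.73% of the genes tested) and 1 lower (Klf2, against 4.88%) in Malt1_PD against Vector, or 2 of 10 beside 8.61% in either direction. In Malt1_WT against Vector 1 was higher (Klf4, against 3.3%) and 0 lower (against 3.8%), or 1 of 10 beside 7.09%. DESeq2 called 0 members in Malt1_PD against Vector (0.105% of genes called higher and 0.15% lower) and 0 in Malt1_WT against Vector (0.103% and 0.15%). In the edgeR fit without Vector replicate 2, Klf4 had a log2 fold change of 0.45 in Malt1_PD against Vector and 0.57 in Malt1_WT against Vector. Without Vector replicate 1 it had 0.37 in Malt1_PD and 0.49 in Malt1_WT. In both fits the lone Vector library is assumed to vary like the other groups, so calls are not given. The single gene that edgeR called in each comparison was no KLF gene. Since the members were chosen with these comparisons known, the counts describe them and support nothing further.

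Libraries did not overlap for 2 members higher (Klf4 and Klf16) and 3 lower (Klf2, Klf5 and Klf6) in Malt1_PD against Vector, where 18.4% of the genes tested lay higher and 19.7% lower in this way. In Malt1_WT against Vector, 3 members were higher (Klf3, Klf4 and Klf16) and 2 lower (Klf2 and Klf5), where the shares were 15.5% and 17.1%. The median log2 fold change of the 10 members was 0.00 in Malt1_PD against Vector and 0.05 in Malt1_WT against Vector, and the median over all genes tested was 0.00 in both. The median size of the change, whatever its sign, was 0.07 for the members and 0.14 for all genes in Malt1_PD against Vector, and 0.06 for the members and 0.12 for all genes in Malt1_WT against Vector.

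**Figure D2:**
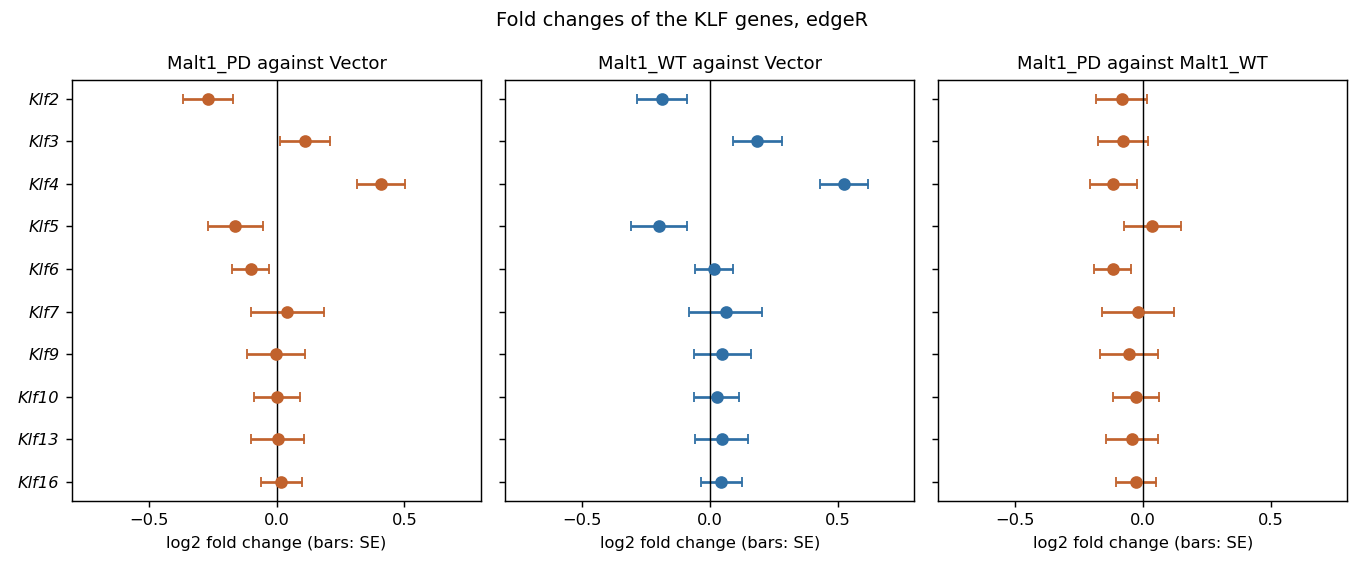
Log2 fold change (horizontal axis) of each KLF gene in Malt1_PD against Vector, Malt1_WT against Vector and Malt1_PD against Malt1_WT. Points are edgeR estimates and bars their SE. Against Vector, Klf4 stands at 0.41 in Malt1_PD and 0.53 in Malt1_WT, the other 9 members lie between -0.27 and 0.19, and all 10 lie between -0.12 and 0.04 between the Malt1 forms.

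The Malt1 forms were then set against each other, a comparison that uses no Vector library in its group means. Klf4 lay lower in Malt1_PD without overlap, at 35.1 against 38.0 CPM in Malt1_WT, with a log2 fold change of -0.12 ± 0.09 (SE) and an edgeR adjusted p of 1.00. Klf6 also lay lower in Malt1_PD, at 209 against 227 CPM in Malt1_WT (-0.12 ± 0.07, edgeR adjusted p of 1.00). Klf16, the other member whose libraries did not overlap, had 65.1 CPM in Malt1_PD and 66.3 CPM in Malt1_WT (-0.03 ± 0.08). That made 3 members lower and 0 higher without overlap, where 16.1% and 16% of the genes tested were lower and higher. The remaining 7 members overlapped and had log2 fold changes between -0.08 and 0.04.

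In Malt1_PD against Malt1_WT, edgeR called 0 of 10 members, where 0.00681% of the genes tested were called, with none past an unadjusted p of 0.05 (0 of 10, beside 1.92% of the genes tested, 1.08% higher and 0.838% lower) and 0 by DESeq2, which called 0.00356% of its genes lower. The median log2 fold change was -0.05 for the members and 0.00 for all genes tested. With 2 libraries a group, this fit does not separate the Malt1 forms in any of these genes, which does not show that they act alike.

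On a scale divided by gene length (RPKM, CPM per kilobase of gene length), Klf6 was the most abundant member in every group, at 47.7 ± 0.0845 RPKM in Malt1_PD, 51.8 ± 1.06 RPKM in Malt1_WT and 51.2 ± 0.574 RPKM in Vector (SD, n = 2 each). Klf2 came next at 37.1 ± 3.61 RPKM in Malt1_PD, 39.4 ± 2.33 RPKM in Malt1_WT and 44.8 ± 0.456 RPKM in Vector, followed by Klf16, Klf13 and Klf10. At the low end were Klf9, Klf3 and Klf5, with Klf5 at 3.66 RPKM in Malt1_PD, 3.56 RPKM in Malt1_WT and 4.09 RPKM in Vector. Klf6 was above 92.7% of the genes tested in Malt1_PD, 93.4% in Malt1_WT and 93.1% in Vector, and Klf5 above 39.5% in Malt1_PD, 39.1% in Malt1_WT and 42.2% in Vector.

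Klf4 and Klf7 exchanged places in this order. Klf4 was the sixth in Malt1_PD at 11.5 ± 0.140 RPKM. It was also the sixth in Malt1_WT at 12.5 ± 0.347 RPKM, where its libraries overlapped those of Klf10, and the seventh in Vector at 8.67 ± 0.335 RPKM, where its libraries overlapped those of Klf7. All other neighbours in the order stood apart in both libraries of each group. As a share of the summed RPKM of the 10 members, Klf4 took 6.43% and 6.19% in Malt1_PD, 6.32% and 6.68% in Malt1_WT, and 4.53% and 4.60% in Vector. Klf2 took 19.2% and 21.5% in Malt1_PD, 21.2% and 19.8% in Malt1_WT, and 24.2% and 22.9% in Vector. The sum itself was 181 and 185 RPKM in Malt1_PD, 193 and 190 RPKM in Malt1_WT, and 186 and 194 RPKM in Vector. Both Malt1_PD sums lay below the other 4, and Malt1_WT and Vector overlapped. Both shares lay apart from Vector in all 4 Malt1 libraries and overlapped between the Malt1 forms.

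**Figure D3:**
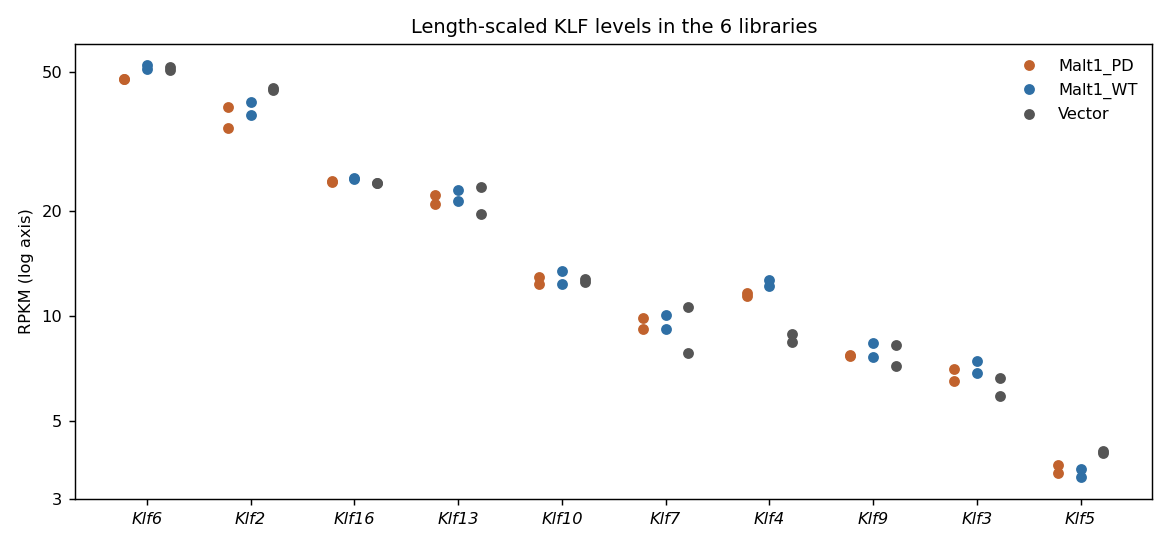
Level per gene length (RPKM, log axis) of the 10 KLF genes, in order of their Vector mean, with 1 point per library in Malt1_PD, Malt1_WT and Vector. Klf6 leads at 47.6 to 52.5 RPKM and Klf5 is the lowest, while Klf4 lies above Klf7 in the Malt1 libraries and within the Klf7 range in Vector.

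Replicates of a group were compared for the longest members and for shorter ones. The log2 difference of replicate 1 minus replicate 2 was 0.11 in Malt1_PD, -0.13 in Malt1_WT and -0.44 in Vector for Klf7 (8131 nt). It was 0.08 in Malt1_PD, -0.11 in Malt1_WT and -0.25 in Vector for Klf13 (7531 nt), and -0.11 in Malt1_PD, -0.11 in Malt1_WT and -0.17 in Vector for Klf3 (11243 nt). All 3 were lower in replicate 1 in Malt1_WT and Vector. Klf4, at 3049 nt, differed by 0.02 in Malt1_PD, -0.06 in Malt1_WT and -0.08 in Vector. Klf9, of similar length at 3263 nt, differed by -0.00 in Malt1_PD, 0.13 in Malt1_WT and -0.20 in Vector, more than Klf3 in Vector. Its Vector values rest on 418 and 482 counts. The remaining members, of 1847 to 5201 nt, lay between -0.03 and 0.03 in Vector. Of them, Klf2 differed by -0.20 in Malt1_PD, and Klf2 and Klf10 by 0.12 in Malt1_WT. The part of length in these differences was not tested. With the length trend removed from each library, Klf4 had log2 fold changes of 0.44 in Malt1_PD against Vector and 0.55 in Malt1_WT against Vector, as large as without that step. Klf2, at 1847 nt the shortest member, had -0.24 in Malt1_PD against Vector and -0.17 in Malt1_WT against Vector. Klf3, the longest, fell to 0.055 in Malt1_PD against Vector, from 0.11 without that step. In Malt1_WT against Vector it fell to 0.15, from 0.19.

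**Figure D4:**
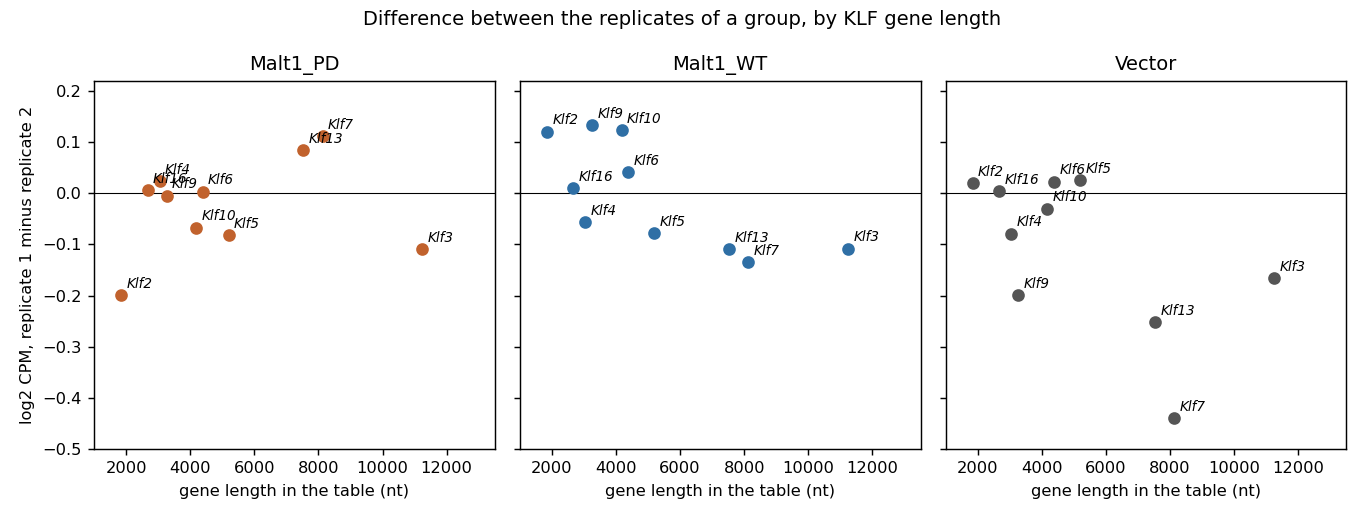
Difference between the replicates of a group (vertical axis, log2 CPM, replicate 1 minus replicate 2) against gene length in nt (horizontal axis), for the 10 KLF genes in Malt1_PD, Malt1_WT and Vector. In Vector the long genes Klf7, Klf13 and Klf3 lie at -0.44, -0.25 and -0.17, and the shorter Klf9 and Klf4 at -0.20 and -0.08. The remaining shorter genes lie between -0.03 and 0.03 in Vector.

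The genes whose profile was most like that of Klf4 were sought among 9573 genes with a mean log2 CPM of at least 3. Likeness was the root mean square difference from Klf4 of log2 CPM over the 6 libraries, after each gene was centred on its own mean. The closest were Tgfbi, a matrix protein gene induced by TGF-beta (0.025), Timm29, a mitochondrial import gene (0.058), Col6a1, a collagen VI chain gene (0.059), Ksr1, a Ras pathway scaffold gene (0.062), and Csf1, the gene of the macrophage colony-stimulating factor (0.063). A gene without change would be at 0.226 and the median gene was at 0.252. Tgfbi had 174 CPM in Malt1_PD, 195 CPM in Malt1_WT and 134 CPM in Vector. These genes were selected for their likeness in these libraries, so their fold changes carry no test. Among the members, Klf3 came closest at 0.158 and Klf2 was the most distant at 0.339.

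**Figure D5:**
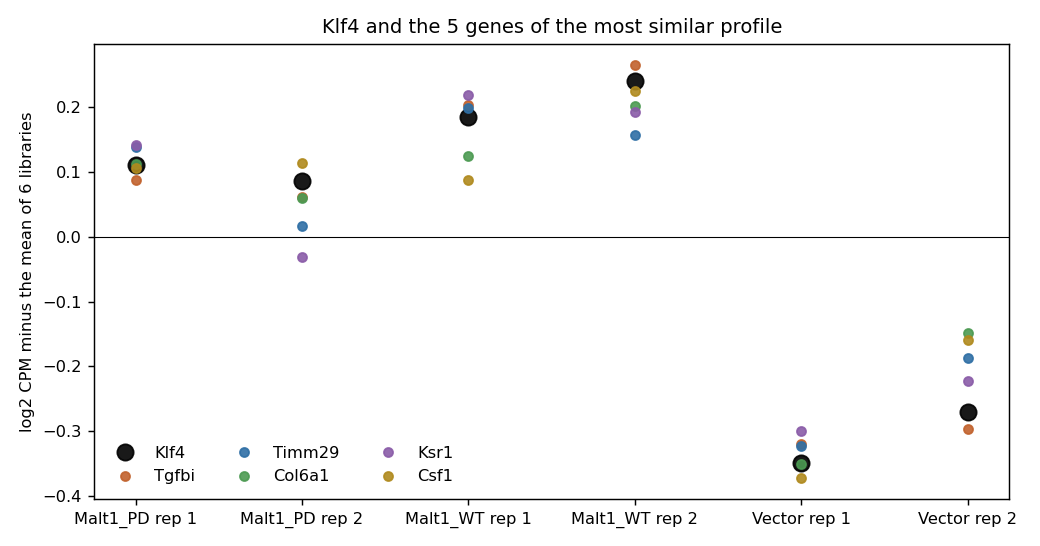
Centred log2 CPM (vertical axis, each gene minus its mean over the 6 libraries) of Klf4 and the 5 genes of the most similar profile, by library. Klf4 lies at 0.11 and 0.09 in Malt1_PD, 0.18 and 0.24 in Malt1_WT, and -0.35 and -0.27 in Vector, with Tgfbi within 0.03 of it in each library.

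Of the KLF genes outside the 10, Klf11, a TGF-beta-inducible relative of Klf10, was counted at 11.7 CPM in both Malt1_PD libraries, 13.5 and 16.4 CPM in Malt1_WT, against 15.3 and 18.9 CPM in Vector. It lay lower in Malt1_PD than in either other group without overlap, with log2 fold changes of -0.54 ± 0.16 (SE) against Vector and -0.36 ± 0.16 against Malt1_WT. Neither passed edgeR's threshold (adjusted p of 0.421 and 1.00). Klf1, the erythroid member, had 6 to 14 counts a library and did not pass either. Klf8, Klf12 and Klf15 had at most 5 counts in any library and were not tested.

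The wider KLF system was described with lists chosen from general knowledge of KLF biology, and edgeR called 0 genes of any list in any of the 3 comparisons. Log2 fold changes of list genes and list medians are against Vector unless the other Malt1 form is named. The SP family, the closest relatives of the KLF proteins, had 5 tested members of 9, with a median log2 fold change of 0.00 in Malt1_PD against Vector and -0.07 in Malt1_WT against Vector. The abundant Sp1 stood at -0.08 ± 0.14 in Malt1_PD and -0.07 ± 0.14 (SE) in Malt1_WT. The 13 co-regulators, among them Sin3a, Ctbp1 and Ep300, had medians of 0.02 in Malt1_PD and 0.08 in Malt1_WT. Hdac1, a deacetylase of the SIN3A complex, stood at -0.16 ± 0.09 in Malt1_PD and -0.18 ± 0.09 in Malt1_WT. The 12 genes of KLF protein turnover had medians of 0.05 in Malt1_PD and 0.08 in Malt1_WT, and the ubiquitin ligase gene Smurf1 stood at 0.23 ± 0.11 in Malt1_PD and 0.28 ± 0.11 in Malt1_WT.

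The MEK5-ERK5-MEF2 and CCM pathway, which controls Klf2 and Klf4 in endothelium, had 10 tested members of 12 and medians of -0.01 in Malt1_PD against Vector and 0.04 in Malt1_WT against Vector. Its kinase gene Mapk7, which encodes ERK5, stood at -0.05 ± 0.10 in Malt1_PD and 0.01 ± 0.10 (SE) in Malt1_WT. Of 16 KLF target genes, 10 were tested, with medians of -0.08 in Malt1_PD and -0.02 in Malt1_WT. Odc1, the polyamine enzyme gene that KLF4 represses in human colon cancer cells, had 1443 CPM in Malt1_PD, 1516 CPM in Malt1_WT and 1985 CPM in Vector, log2 fold changes against Vector of -0.46 ± 0.08 in Malt1_PD and -0.39 ± 0.08 in Malt1_WT. Whether KLF4 acts on Odc1 in these cells was not tested. The low-count Nos3 stood at -1.28 ± 0.40 in Malt1_PD and -1.35 ± 0.40 in Malt1_WT, and Smad7 at 0.18 ± 0.09 in Malt1_PD and 0.26 ± 0.09 in Malt1_WT. Cdkn1a, another target on the list, overlapped Vector, at -0.09 ± 0.10 in Malt1_PD and 0.11 ± 0.10 in Malt1_WT. Of the 10 targets, 3 had a log2 fold change above 0 and 7 below in Malt1_PD, and 4 above and 6 below in Malt1_WT. At an unadjusted p under 0.05, 2 of these 10 were lower and 0 higher in Malt1_PD, where 4.88% of all genes tested were lower and 3.73% higher. In Malt1_WT 2 were lower and 1 higher, where the shares were 3.8% and 3.3%.

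Genes of the glucocorticoid response, to which Klf9 belongs, had 9 tested members of 10 and medians of -0.17 in Malt1_PD against Vector and -0.06 in Malt1_WT against Vector. Cebpd, a leucine zipper factor gene, stood at -0.53 ± 0.11 (SE) in both, and the kinase gene Sgk1 at -0.23 ± 0.08 in Malt1_PD and -0.31 ± 0.08 in Malt1_WT. The circadian clock list had 12 tested members of 14 and medians of 0.03 in Malt1_PD and 0.08 in Malt1_WT. Its repressor gene Per2 had 8.19 CPM in Malt1_PD, 5.67 CPM in Malt1_WT and 5.39 CPM in Vector, log2 fold changes against Vector of 0.60 ± 0.20 in Malt1_PD and 0.09 ± 0.20 in Malt1_WT. Bhlhe41 stood at 0.25 ± 0.09 in Malt1_PD and 0.33 ± 0.09 in Malt1_WT. In Malt1_PD against Malt1_WT the medians of these 8 lists, the other KLF genes included, lay between -0.42 and 0.08, and Per2 was the 1 gene of them at an unadjusted p under 0.05 (0.52 ± 0.20), where 1.92% of all genes tested passed. Counted in the same way against Vector, 4.88% of all genes tested were lower and 3.73% higher in Malt1_PD, and 3.8% lower and 3.3% higher in Malt1_WT. Beside these shares, the glucocorticoid list had 2 of 9 lower and 0 higher in each Malt1 form. The clock list had 3 of 12 higher and 1 lower in Malt1_PD, and 2 higher and 0 lower in Malt1_WT. The turnover list had 0 of 12 in Malt1_PD, and 2 higher and 1 lower in Malt1_WT. The SP, co-regulator and MEK5-ERK5-MEF2 lists had 0 in both Malt1 forms, and Klf11 was the 1 other KLF gene, lower in Malt1_PD. The 3 marker lists had 1 tested T cell gene (Lck, -0.06 ± 0.29 in Malt1_PD and -0.51 ± 0.30 in Malt1_WT against Vector), 6 tested epithelial and carcinoma genes (medians of 0.00 in Malt1_PD and -0.08 in Malt1_WT) and 3 tested myeloid genes (medians of -0.54 in Malt1_PD and -0.33 in Malt1_WT). Past that p, beside the same shares, were 1 carcinoma gene higher and 2 lower in Malt1_PD, 1 higher in Malt1_WT, and 2 myeloid genes lower in Malt1_PD. The part of any myeloid cells in the KLF values was not tested.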

How the data were processed

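The authors deposited raw read counts of genes, whole numbers in 6 libraries, per the file headers. Per the submitters' processing notes the build was GRCm38.p6, and featureCounts 1.6.3, Trim Galore 0.6.0 and STAR 2.7.3a were used. Use of strand in counting is not given in the sources used here. A further 6 columns of log2 RPKM, some with repeated names, were not used. Gene lengths are the authors' deposited values, and coordinates come from GENCODE M21 (GRCm38). For Klf9 that annotation holds a later version of the gene than the counts, so its printed coordinates may differ from those counted.

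The main test was edgeR 4.0.16 (R 4.3.3), with filterByExpr, TMM scaling and the quasi-likelihood F test. A single model held the 6 libraries and a term for each group alone. Benjamini-Hochberg adjustment covered the 14675 genes tested, at a threshold of 0.05. SE were derived from the quasi-likelihood F, and 3 residual degrees of freedom remained. Common dispersion was 0.0101 (10.1% as a coefficient of variation). DESeq2 1.42.0 was an alternative. The fit was also run on simulated counts, with the common dispersion for every gene and larger changes than those of the members. Those counts lacked the deviations shared between Malt1_WT and Vector. The run therefore does not show how the fit performs on changes as small as these.

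The members and lists were chosen with earlier results of these data known. By the naming rule, all members, up to 3 genes of each list with the smallest p, every other KLF gene and the 5 profiles closest to Klf4 could be named. Not all are given. No protein sequence was used here.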

Additional observations from a re-analysis of the deposited data

How the results depend on the processing

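With 2 libraries a group, a count of 0 calls does not show that genes were alike, and depth limits Klf1 and the other low genes. Klf4 kept its direction against Vector under all 13 alternatives, with log2 fold changes of 0.37 to 0.45 in Malt1_PD and 0.49 to 0.57 in Malt1_WT. DESeq2 size factors, the DESeq2 test, the fit of the groups compared and the replicate block left the count of members called at 0 in every comparison. With the replicate block, Klf4 stood at 0.41 in Malt1_PD and 0.52 in Malt1_WT against Vector. Deviations of same-numbered libraries correlated at 0.68 between Malt1_WT and Vector, 0.03 between Malt1_PD and Malt1_WT and -0.01 between Malt1_PD and Vector. The numbers were not taken as pairs in the main fit. Malt1_WT and Vector did share such deviations, and no paired fit of those groups alone was run, which limits that comparison.

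In Malt1_WT against Vector, Klf4 passed the threshold without the low-count filter (0.53, 1 member called) and with the length trend removed (0.55, 1 member called). The shares of all genes called in these fits are not given here. Leaving out libraries put Klf4 between 0.49 and 0.57 in Malt1_WT against Vector and between 0.37 and 0.45 in Malt1_PD against Vector. Some of these fits called members, but the calls are not counted here. A group left with a lone library is assumed to vary like the others. In the fit without Vector replicate 1 and Malt1_WT replicate 1, only Malt1_PD keeps a pair, and the lone libraries are assumed to vary like it.

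Over the pathway and marker lists, 0 genes were called in the main setting. In Malt1_WT against Vector this became 2 without the filter and 1 with the length trend removed (Odc1), and 0 to 12 when libraries were left out. In Malt1_PD against Vector it became 4 without the filter, 1 with the length trend removed and 1 by DESeq2 (Odc1 in both), and 0 to 24 when libraries were left out. In Malt1_PD against Malt1_WT it was 0 to 4 when libraries were left out. By DESeq2, 0.105% of all its genes were called higher and 0.15% lower in Malt1_PD against Vector. For the other fits the shares of all genes called are not given here. Whether the lists exceeded those shares was not tested, so these counts describe the fits and not the lists in particular. Fits that left out libraries assume that a lone library varies like the other groups. The cause of the changes in count was not tested.

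Of the 20 member values against Vector, 11 kept their sign under every alternative run, and the largest movements were those of Klf7 without a Vector library (-0.14 and 0.30 in Malt1_WT). In Malt1_PD against Malt1_WT, 6 members changed sign when libraries were left out, and none of these was called in the main fit. Klf2 lay between -0.19 and 0.0121, Klf5 between -0.00378 and 0.0785, Klf7 between -0.0841 and 0.04999, Klf9 between -0.12 and 0.0151, Klf10 between -0.0875 and 0.0373, and Klf13 between -0.0949 and 0.0136.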
